A study of Mus musculus with 6 samples.

Results

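Expression of 10 genes of the Wnt pathway was followed in mouse back skin after cyclosporin A: the ligands Wnt10a, Wnt10b, Wnt3, Wnt4, Wnt5a and Wnt11, and the beta-catenin partners and response genes Lef1, Tcf7, Axin2 and Ctnnb1. The members were all probes on the arrays whose accession maps to 1 of these genes, which gave 13 probes of 41174, and 10 genes of the 22751 tested. All 13 probes passed the filter on dim signals, and Wnt3, Tcf7 and Ctnnb1 each had more than 1 probe. Back skin of C57/BL mice given cyclosporin A was compared with back skin of C57/BL mice given ethanol, the control, at days 2, 4 and 7. Each of 6 dual-colour Agilent arrays carried a cyclosporin A sample in the Cy5 channel and an ethanol sample from the matching day in the Cy3 channel, with 2 arrays a day. Age and sex of the mice, the dose and the number of animals behind a sample were not given in the sources used here. Cyclosporin A suppresses the immune system through cyclophilin and calcineurin, a phosphatase, and extra hair growth is known in people who take it.

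Wnt ligands are secreted lipid-modified proteins that bind Frizzled receptors with their co-receptors Lrp5 and Lrp6. In the canonical branch this stops the destruction complex, beta-catenin accumulates and enters the nucleus, and there it activates target genes together with the DNA-binding factors of the TCF/LEF family. In skin this branch is known for its part in the formation of hair follicles, in the start of follicle growth, and in the specification of hair shaft precursors, while some ligands also act through branches that do not need beta-catenin.

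At day 7, Lef1 and Wnt11 were higher and Wnt3 was lower with cyclosporin A, by 2.97-fold, 1.54-fold and 1.84-fold. Axin2, a negative regulator that canonical signalling itself induces, differed by 0.07 on the log2 scale (SE 0.20), with a 95% interval from -0.41 to 0.54. Across all 3 days, Lef1 and the brighter probe of Tcf7 were higher, by 0.94 and 0.40 on the log2 scale. At days 2 and 4 no member passed the test. Ratios here are cyclosporin A over ethanol on the log2 scale, and SE is limma's moderated standard error. Calls use a threshold of 0.05 on p-values adjusted by Benjamini-Hochberg over all genes tested.

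The sequences upstream of the 3 genes called at day 7 are shown because 2 of them were higher and 1 lower in the same arrays. They are the 250 bases before the first start in the RefSeq promoter table of build GRCm38.p6, read 5' to 3' on the plus strand, where all 3 genes lie. Capitals mark a match to the TCF/LEF core, searched as CTTTGAT or CTTTGAA on both strands.
Lef1, chr3:131110047-131110296: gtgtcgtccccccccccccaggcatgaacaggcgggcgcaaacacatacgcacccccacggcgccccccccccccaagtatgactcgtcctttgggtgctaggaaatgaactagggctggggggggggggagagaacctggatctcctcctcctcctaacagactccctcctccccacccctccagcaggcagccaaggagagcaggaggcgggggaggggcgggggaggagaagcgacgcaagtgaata
Wnt11, chr7:98834862-98835111: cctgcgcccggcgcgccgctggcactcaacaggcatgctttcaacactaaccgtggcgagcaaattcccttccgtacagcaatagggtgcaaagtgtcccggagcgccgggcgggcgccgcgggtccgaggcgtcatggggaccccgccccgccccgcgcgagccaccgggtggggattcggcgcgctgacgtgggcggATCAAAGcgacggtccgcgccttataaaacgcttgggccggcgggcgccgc
Wnt3, chr11:103773925-103774174: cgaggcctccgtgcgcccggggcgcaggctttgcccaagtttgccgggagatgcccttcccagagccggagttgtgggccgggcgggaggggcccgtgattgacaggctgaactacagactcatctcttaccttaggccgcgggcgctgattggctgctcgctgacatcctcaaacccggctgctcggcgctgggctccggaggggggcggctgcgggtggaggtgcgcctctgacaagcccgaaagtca
Only the Wnt11 window held a match, CTTTGAT on the opposite strand, which begins 51 bases before the start. A match is a description of the letters and not a site. The table matched 8 members with 14 starts between them, and 1 of the 14 windows held a match. Among all 32851 windows of 250 bases, 7.48% held either word, 3.21% CTTTGAT and 4.46% CTTTGAA. Windows of the members were rich in G and C, with 44.8% to 85.2% and a median of 67.4%, against a median of 52.4% over all windows. Lef1 has 4 starts in the table and Wnt11 has 2, and the other windows of both genes held neither word.

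The label of the tissue was checked first. All 7 keratinocyte markers and all 6 dermal fibroblast markers tested were well above background in both channels of every array. Their ratios varied between arrays of a day. Keratinocyte medians were -0.31 and 0.78 at day 2, 0.15 and 0.30 at day 4, and 0.04 and -0.68 at day 7. Fibroblast medians were 0.78 and -0.07, -0.33 and -0.08, and -0.25 and -0.04. Whether paired samples held equal shares of these cells was not tested. The SD of all log2 ratios per array was 0.262 to 0.441, and no array was left out. Days 2 and 4 shared a slide and day 7 had its own, so that day 7 and slide cannot be told apart. Dyes were never swapped, so that dye and treatment cannot be told apart for a single gene. Per array, 43.5% to 56.5% of probes were well above background in Cy3 (ethanol) and 59.9% to 68.8% in Cy5 (cyclosporin A). An ethanol signal that is not above background is therefore no proof of absence from control skin. Replicates are called biological in the series text, but no animals are named, and the p-values reflect only how these samples vary.

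Of the 10 members, 2 were called higher and 1 lower at day 7, where 2.35% of all 22750 genes tested were called higher and 0.642% lower, or 2.99% in all. Higher genes made up 78.5% of the 680 genes called at day 7, 91.3% of the 287 called from the deposited log ratios, and 69.9% of the 365 called among probes that every array showed above background in each channel. The median of the members was 0.29 and 8 of 10 lay above 0, while the median of all genes was 0.03 and 54.1% lay above 0. At day 2, limma called 0 of 10 members and 0 of all genes (0%), and 0 members against 9.68% of genes had an unadjusted p under 0.05. At day 4, limma called 0 of 10 members, beside 0.0044% of genes, and Wnt4, Lef1 and Tcf7 had an unadjusted p under 0.05, as did 15% of genes. For the average over days 2 of 10 members were higher, beside 9.67% of genes, and none was lower, beside 3.41% of genes and 13.1% called in all. An unadjusted p under 0.05 was reached by 4 members on average, beside 32.5% of genes, and by 5 at day 7, beside 22.1%. RNA came from whole skin, so fewer cells of a type and less RNA per cell cannot be told apart.

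**Figure D1:**
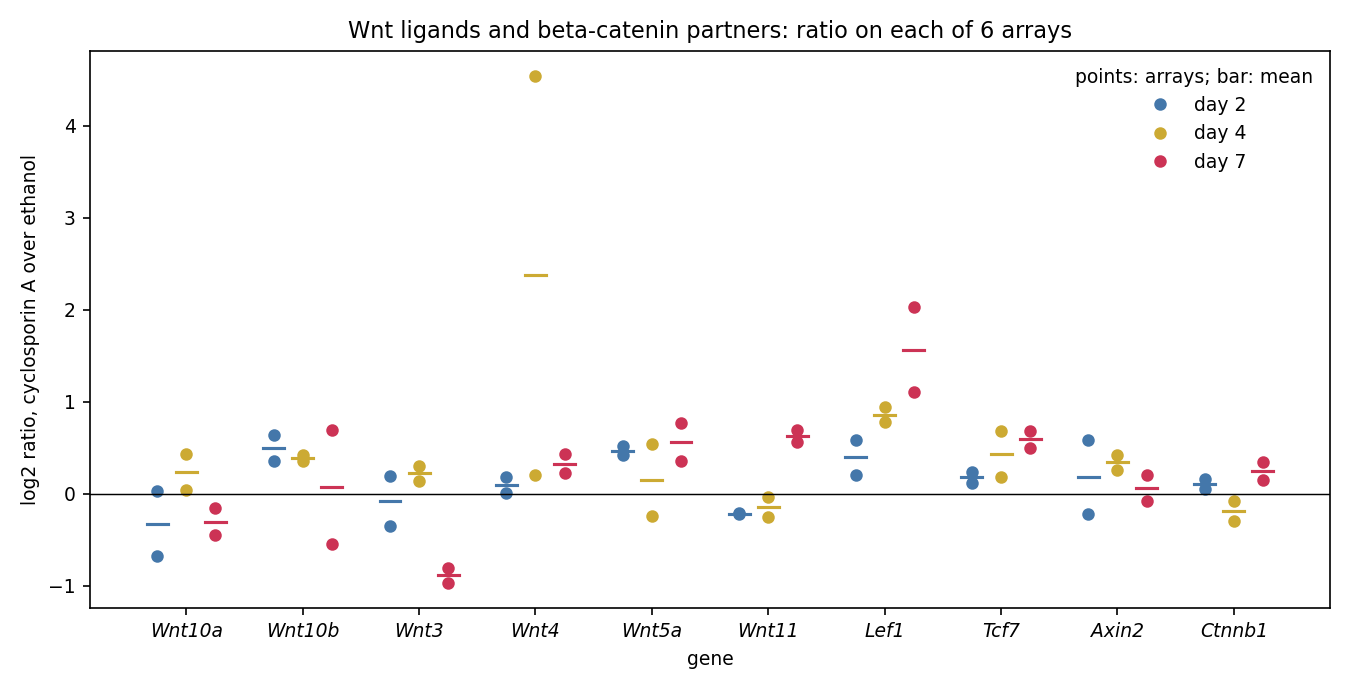
Log2 ratio of cyclosporin A over ethanol (vertical axis) of the 10 members on each of 6 arrays, with points for arrays, bars for day means and colours for days. Lef1 lies highest at day 7 (1.10 and 2.03), Wnt3 lowest (-0.96 and -0.80), and a single Wnt4 point at day 4 stands at 4.54.

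Lef1, which encodes lymphoid enhancer-binding factor 1, a nuclear DNA-binding partner of beta-catenin, had ratios of 0.59 and 0.21 at day 2. Its ratios were 0.78 and 0.94 at day 4 and 1.10 and 2.03 at day 7. All 6 ratios lay above 0, and the days did not overlap: both arrays of day 4 stood above both of day 2, and both of day 7 above both of day 4. In the Cy5 channel, which held the cyclosporin A samples, its normalized log2 intensity was 8.27 and 7.70 at day 2, 8.65 and 8.56 at day 4, and 8.68 and 9.69 at day 7. The ethanol channel stayed within 7.49 to 7.87 over the 6 arrays. Replicate 2 of day 7 stood well above the earlier Cy5 signals, while replicate 1 (8.68) was close to those of day 4. At day 7 the ethanol signal was well above background on 1 of 2 arrays.

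For Lef1 the day 7 ratio was 1.57 (SE 0.22, n = 2), a 2.97-fold difference with an adjusted p of 0.0215 in limma. This value ranked 120 from the top of 22750 genes. At day 4 the ratio was 0.86 (SE 0.22, adjusted p = 0.199 in limma), and at day 2 it was 0.40 (SE 0.22, adjusted p = 0.602 in limma). Averaged over days it was 0.94 (SE 0.13, adjusted p = 0.0133 in limma). The difference between day 7 and day 2 was 1.17 (SE 0.31) and did not pass (adjusted p = 0.50 in limma), nor did that between day 7 and day 4 (0.71, SE 0.31, adjusted p = 0.934). The day 7 call was lost without either array of day 4 (adjusted p = 0.0619) and without replicate 2 of day 7, where replicate 1 alone gave 1.10 (adjusted p = 0.105). The average over days was lost without either array of day 4 (adjusted p = 0.0603 and 0.0817).

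Wnt11, a ligand known mostly for signalling that does not need beta-catenin, had ratios of -0.21 and -0.21 at day 2 and -0.04 and -0.25 at day 4. At day 7 its ratios were 0.69 and 0.56. All 4 earlier arrays lay below 0 and both arrays of day 7 above it, except after median centring, where days 2 and 4 turned to 0.21 and 0.13. Median centring moved all genes by a median of 0.39, 0.269 and 0.166 at days 2, 4 and 7. Relative to that shift, Wnt11 stood at -0.18, -0.14 and 0.76. Cy5 signals of Wnt11 were 8.54 and 8.70, 8.48 and 8.54, and 9.57 and 9.23 at days 2, 4 and 7, so day 7 lay above all earlier arrays. Its ethanol signals, 8.52 to 8.91 over all arrays, overlapped between days.

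For Wnt11 the day 7 ratio was 0.63 (SE 0.12, n = 2, 1.54-fold, adjusted p = 0.0447 in limma). Its difference between day 7 and day 2 was 0.84 (SE 0.16), and between day 7 and day 4 it was 0.77 (SE 0.16), with adjusted p of 0.251 and 0.454 in limma. Both differences missed the threshold over all genes. The day 7 call stood close to the threshold: it was lost whichever of the 6 arrays was left out, with adjusted p from 0.0614 (without either array of day 2) to 0.261 (without replicate 1 of day 7). In the scanner software's processed signals the value was again 0.63, with an adjusted p of 0.121.

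Wnt3, a ligand of the canonical branch that is expressed in the follicle and epidermis, was the member that was lower. Its brighter probe had ratios of -0.35 and 0.20 at day 2, 0.14 and 0.31 at day 4, and -0.96 and -0.80 at day 7. Both arrays of day 7 lay below every earlier array. Its Cy5 signals were 10.31 and 11.06 at day 2, 10.86 and 11.07 at day 4, and 9.95 and 10.05 at day 7, while its ethanol signals were 10.66 to 10.91 throughout. The lower ratio at day 7 therefore went with lower Cy5 signal, and the ethanol signals of the days overlapped.

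At day 7 Wnt3 stood at -0.88 (SE 0.15, n = 2), a 1.84-fold lower signal with an adjusted p of 0.0382 in limma. The dimmer probe of Wnt3 had -0.51 and -0.44 at day 7, with a mean of -0.47 (SE 0.15) that did not pass over all probes (adjusted p = 0.140 in limma). Both probes gave negative ratios on both arrays of day 7. Compared with day 4 the brighter probe was lower by 1.11 (SE 0.22), and compared with day 2 by 0.81 (SE 0.22), with adjusted p of 0.359 and 0.505 in limma. The day 7 call was lost whichever array of days 4 or 7 was left out, with adjusted p from 0.092 to 0.247. It was lost as well after median centring (-0.43, adjusted p = 0.131), which is -0.59 relative to the shift of all genes. Processed signals and deposited log ratios both gave -0.62 for Wnt3 at day 7 (adjusted p = 0.205 and 0.209 in limma). Scale normalization gave -0.81 and the mean over its probes -0.68 (adjusted p = 0.0694 and 0.0565 in limma), so the call was lost there too.

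**Figure D2:**
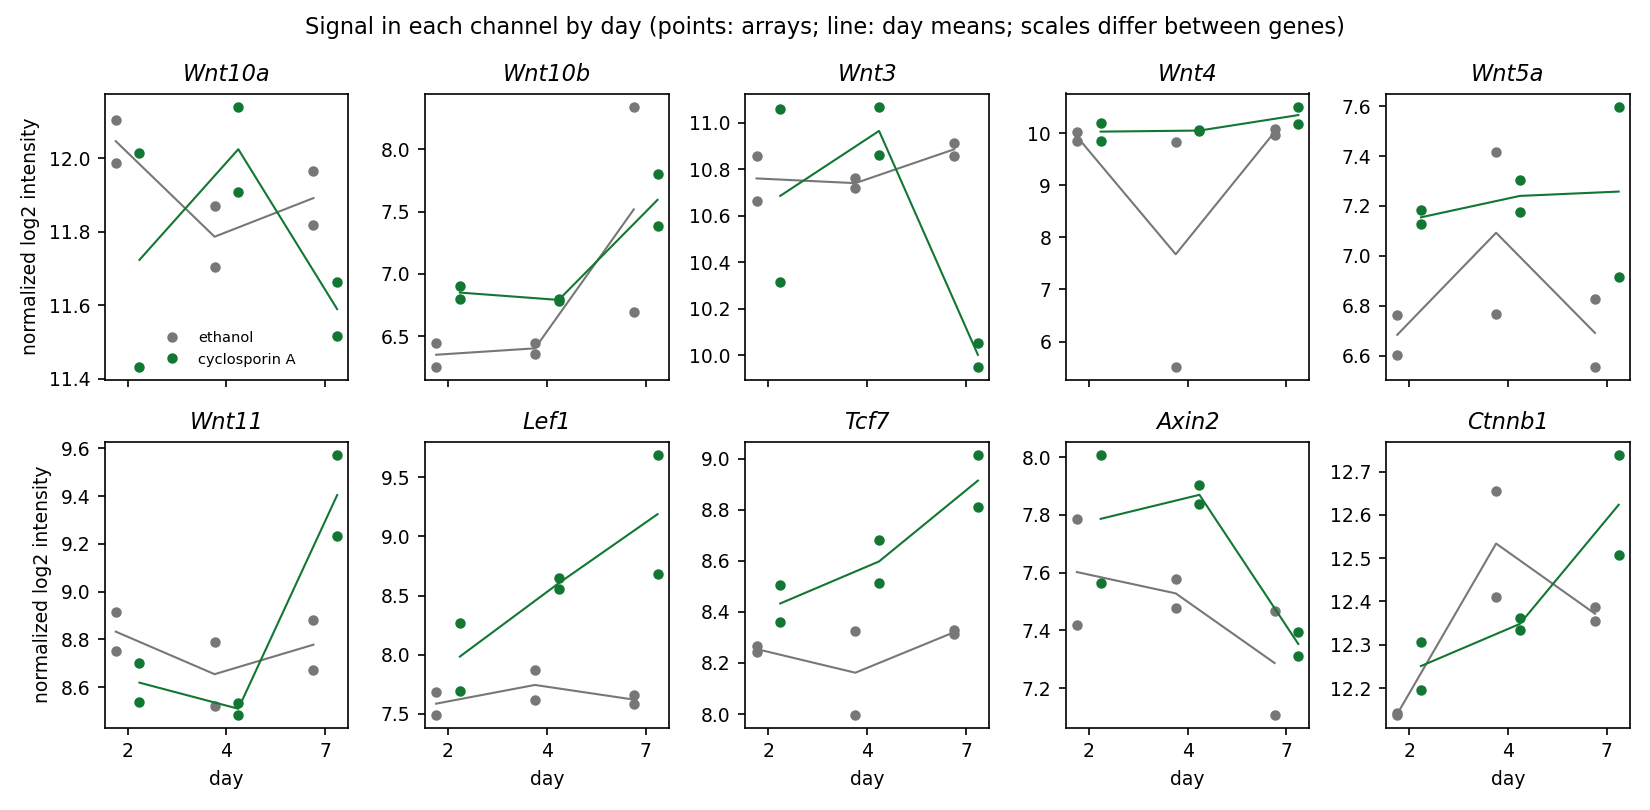
Normalized log2 intensity (vertical axis, a separate scale for each gene) in the ethanol and the cyclosporin A channel at days 2, 4 and 7, with points for arrays and lines through day means. Wnt11 and Wnt3 part at day 7 through the cyclosporin A channel, while Lef1 lies higher in that channel on all days. A single ethanol spot of Wnt4 at day 4 stands at 5.52.

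The remaining ligands did not pass the test on any day. Wnt10a, a ligand of skin appendages and teeth, had -0.67 and 0.03 at day 2, 0.04 and 0.44 at day 4, and -0.45 and -0.16 at day 7. Its day 7 ratio was -0.30 (SE 0.19, adjusted p = 0.397 in limma), and it turned to 0.26 after median centring, which is 0.10 above the shift of all genes. Wnt5a, a ligand best known for signalling without beta-catenin, had ratios of 0.42 and 0.52, 0.54 and -0.24, and 0.36 and 0.77 at days 2, 4 and 7. Its day 7 ratio of 0.57 (SE 0.20) had an adjusted p of 0.171 in limma, and 5 of 6 arrays lay above 0. At day 2 its ethanol signal was not well above background on any array, and the fitted 1.39-fold difference did not pass (adjusted p = 0.519 in limma). At day 7 Wnt5a was above background on 1 of 2 ethanol arrays.

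Wnt10b, a canonical ligand linked to follicle growth, was near the limit of detection in ethanol skin. Its ratios were 0.35 and 0.65 at day 2, 0.35 and 0.43 at day 4, and 0.69 and -0.54 at day 7, where the arrays went opposite ways. The ethanol signal was not well above background on any array of days 2 and 4. Cyclosporin A stood 1.41-fold and 1.29-fold higher there as point estimates, and neither day's ratio passed (adjusted p = 0.583 and 0.535 in limma). These folds compare the brighter channel's mean with the higher of the dim signal and the lowest signal well above background on each array. Cy5 signals of Wnt10b were 7.38 and 7.81 at day 7 and 6.78 to 6.90 earlier. Ethanol signals reached 6.69 and 8.35 at day 7, so that the signal of both channels was higher on that day, and slide cannot be told apart from day. The day 7 ratio was 0.08 (SE 0.27, adjusted p = 0.888 in limma).

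Wnt4, a ligand that can act through both branches, had ratios of 0.01 and 0.18 at day 2, 0.21 and 4.54 at day 4, and 0.43 and 0.22 at day 7. The value of 4.54 came from a single dim spot. Its median Cy3 intensity on replicate 2 of day 4 was 131 and not well above background, while the other 5 arrays gave 800 to 931. Its Cy5 signal on that array was 10.06, within the 9.86 to 10.51 of all arrays. With that spot Wnt4 ranked 1 of 22751 genes at day 4 (2.38, SE 0.84, adjusted p = 0.273 in limma), and without that array its day 4 ratio was 0.21. The pooled spread that this spot sets also makes the SE of Wnt4 0.84 at day 7, where its ratio was 0.33.

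Tcf7, which encodes TCF1, another nuclear partner of beta-catenin, had ratios of 0.12 and 0.24 at day 2, 0.19 and 0.69 at day 4, and 0.69 and 0.50 at day 7 on its brighter probe. All 6 lay above 0, and both arrays of day 7 lay above both of day 2. The average over days was 0.40 (SE 0.09, adjusted p = 0.0312 in limma), while the day 7 ratio of 0.59 (SE 0.15) did not pass (adjusted p = 0.0935 in limma). The dimmer probe gave -0.13 and -0.04, -0.09 and -0.15, and 0.38 and 0.18, with 2 of 6 arrays above 0. Its average was 0.03 (SE 0.07, adjusted p = 0.825 in limma), so the probes disagree before day 7 and have the same sign at day 7. The call of the brighter probe was lost whichever of the 6 arrays was left out, with adjusted p from 0.0628 to 0.115.

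Axin2 had -0.22 and 0.59 at day 2, 0.26 and 0.42 at day 4, and 0.21 and -0.07 at day 7, with overlapping days 2 and 7. Its Cy5 signal was 7.31 and 7.39 at day 7, below the 7.56 to 8.01 of the earlier days. Its ethanol signal was also low at day 7, at 7.11 and 7.47, and was well above background on 1 of 2 arrays. The day 7 ratio of 0.07 turned to -0.05 after median centring and to -0.04 in the processed signals, and its 95% interval reached from -0.41 to 0.54. Ctnnb1, which encodes beta-catenin itself, is regulated mainly through the stability of its protein, which an array of RNA does not measure. Its brighter probe had 0.16 and 0.06, -0.08 and -0.29, and 0.15 and 0.35 at days 2, 4 and 7, with a day 7 ratio of 0.25 (SE 0.12, adjusted p = 0.275 in limma). Its dimmer probe lay above 0 on 6 of 6 arrays, from 0.15 to 0.63, and its average over days was 0.33 (SE 0.07, adjusted p = 0.0277 in limma over all probes), against 0.06 for the brighter probe. The Ctnnb1 probes thus disagree on the average and at day 4.

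**Figure D3:**
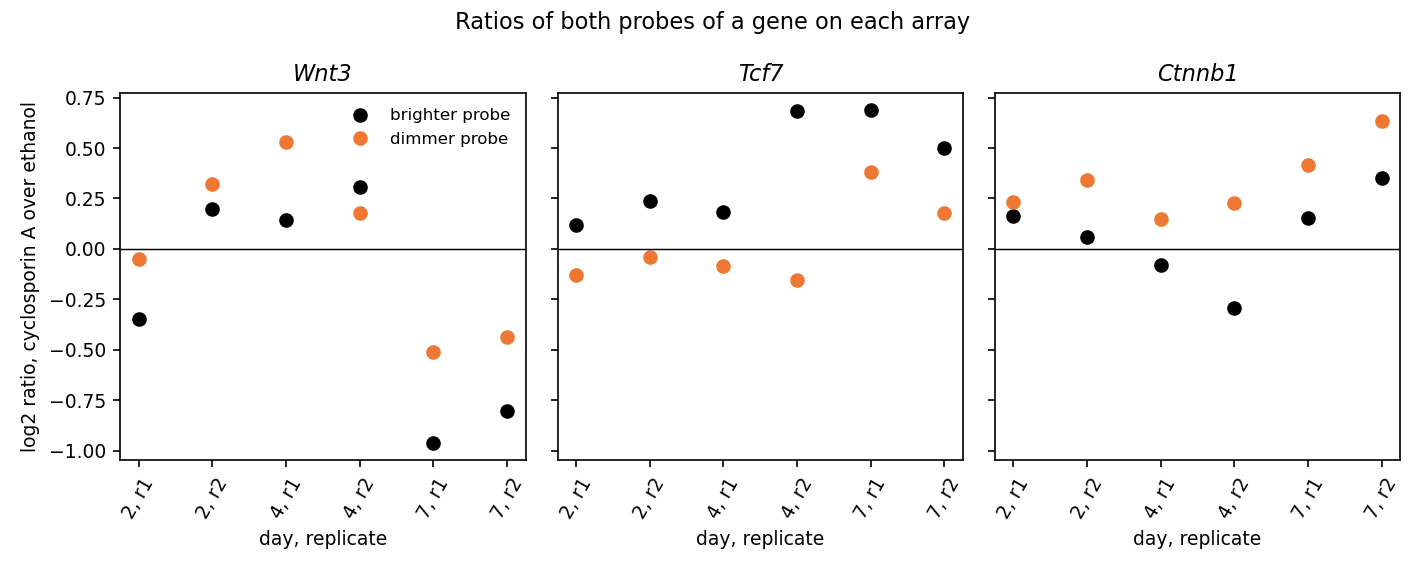
Log2 ratio (vertical axis) of both probes of Wnt3, Tcf7 and Ctnnb1 on each array, named by day and replicate (r1, r2). Both Wnt3 probes lie below 0 at day 7, the dimmer Tcf7 probe lies below 0 at days 2 and 4, and the dimmer Ctnnb1 probe lies above 0 on every array.

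Differences between days were tested on their own. For day 4 minus day 2, day 7 minus day 4 and day 7 minus day 2, limma called 0 of 10 members each, beside 0%, 0.202% and 0.264% of genes. An unadjusted p under 0.05 was reached by 0, 3 and 3 members, beside 2.24%, 4.47% and 6.13% of genes: Wnt3, Wnt11 and Ctnnb1 from day 4 to day 7, and Wnt3, Wnt11 and Lef1 from day 2 to day 7. Both arrays of day 7 lay above both of day 2 for 4 of 10 members (Wnt4, Wnt11, Lef1 and Tcf7) and below for 1 (Wnt3), beside 18.6% and 14.2% of genes. Day 4 lay above day 2 for 3 members (Wnt10a, Wnt4 and Lef1) and below for 1 (Ctnnb1), beside 16.8% and 12.7% of genes. Day 7 lay above day 4 for 3 (Wnt11, Lef1 and Ctnnb1) and below for 3 (Wnt10a, Wnt3 and Axin2), beside 18.1% and 17.8% of genes. Each channel was then compared between days alone, on intensities given the same distribution over arrays. In the cyclosporin A channel, limma called 0 of 10 members from day 2 to day 7, beside 0.976% of genes, and 5 had an unadjusted p under 0.05, beside 13.9% of genes. These were Lef1 (1.20, SE 0.33), Wnt11 (0.78, SE 0.18), Wnt10b (0.75, SE 0.18), Tcf7 (0.48, SE 0.17) and Wnt3 (-0.68, SE 0.25), with adjusted p from 0.108 for Wnt11 to 0.279 for Wnt3. In the ethanol channel limma also called 0 of 10, beside 0.0352% of genes, and Wnt10b alone had an unadjusted p under 0.05 (1.17, SE 0.43, adjusted p = 0.379), beside 11.3% of genes.

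**Figure D4:**
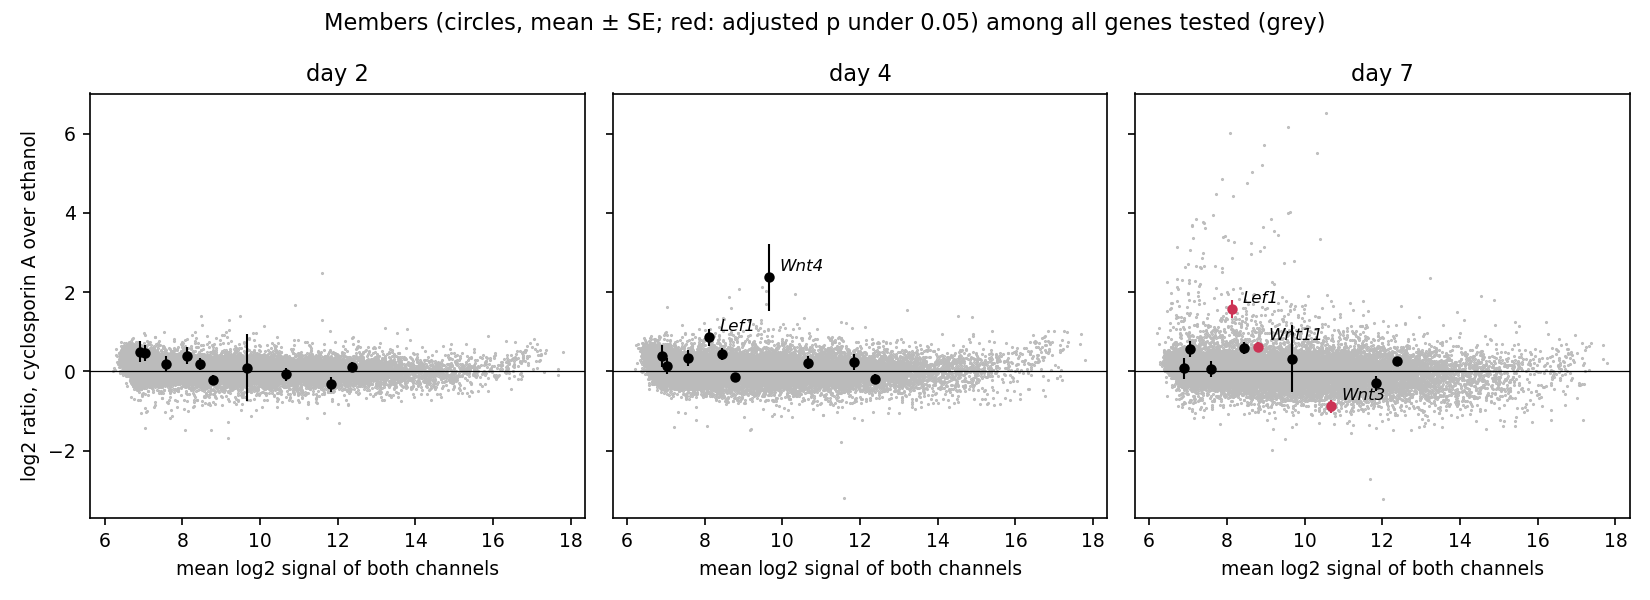
Log2 ratio (vertical axis) against mean log2 signal of both channels (horizontal axis) at days 2, 4 and 7, with all genes tested in grey and the members as circles with their SE, red where called. Lef1 (1.57), Wnt11 (0.63) and Wnt3 (-0.88) are red at day 7, and the long bar of Wnt4 comes from its dim spot at day 4.

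The rest of the pathway was described through 10 further lists. Beside each list, 2.35% of all genes were called higher and 0.642% lower at day 7. Lgr5 and Dkk1 are on more than 1 list and count in each. Of the other beta-catenin response genes, 7 of 15 tested were higher at day 7 and 0 were lower, and their median was 0.63. Their ratios ran from -0.28 to 2.60, and 13 of 15 lay above 0. The genes described below are those with the lowest p of each list and do not stand for the whole list. Among the response genes, Nkd1 had -0.40 and 0.31, Myc -0.06 and 0.06, and Cd44 -0.48 and -0.08 at day 7. These genes were not called. Msx2, a homeobox transcription factor made in hair matrix cells, had ratios of 0.32 and 0.46 at day 2, 1.07 and 1.09 at day 4, and 2.39 and 2.82 at day 7. The fitted difference between day 7 and day 2 was 2.21 (SE 0.19, adjusted p = 0.00869 in limma), and its call was lost whichever array of days 2 or 4 was left out (0.0554 to 0.0642). Msx2 was well above background in ethanol on 0 of 2 arrays at day 2. Its ratio there (1.31-fold) rests on a dim signal, so that 2.21 is no exact size. At day 7 Msx2 was well above background in ethanol on 1 of 2 arrays, and the list of growing follicle markers holds it too. Only its cyclosporin A channel was above background on 2 of 2 arrays of a day. Bambi, a decoy receptor that dampens signals of the TGF-beta family, had -0.14 and 0.06, 0.26 and 0.43, and 1.66 and 1.78 at days 2, 4 and 7 (1.72 at day 7, SE 0.12, adjusted p = 0.00142 in limma). Msx1, a homeobox relative of Msx2, was higher by 1.19 (SE 0.14) at day 7. Lgr5, a receptor for R-spondins and a stem cell marker of the follicle, was higher by 1.06 (SE 0.16).

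Among secreted antagonists 2 of 11 were higher and 1 was lower, with a median of 0.19. Wif1, which binds Wnt proteins outside the cell, had 0.93 and 2.12 at day 7 (1.53, SE 0.26). Dkk1, an inhibitor that binds the Lrp co-receptors, was called higher, with 0.88 and 1.99 on the arrays of day 7. Its ethanol signal was well above background on 0 of these 2 arrays and its cyclosporin A signal on 1, so that no size is given for its difference. Dkk1 passed the filter only through the cyclosporin A channel at day 4. Its call therefore lends no support to the counts of antagonists and response genes that hold it. Dkk2, its relative, was lower, with -0.70 and -1.23 (-0.96, SE 0.16). Of 11 other ligands 1 was higher, Wnt6 (0.79, SE 0.15), with a median of 0.08. Wnt6 is an epithelial ligand, and 7 of these 11 ligands lay above 0. Of 6 genes of Wnt release and uptake 1 was higher, the glypican Gpc3 (0.87, SE 0.12), with a median of 0.19. Of 10 TCF partners and cofactors 1 was higher, Tcf7l2 (0.89, SE 0.14), which encodes TCF4, with a median of -0.02. The mean over all Tcf7l2 probes was 0.42 and did not pass (adjusted p = 0.142 in limma).

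At day 7 limma called 0 of 13 receptors and 0 of 13 genes of the destruction complex. It also called 0 of 10 genes of the planar polarity and calcium branch. An unadjusted p under 0.05 was reached by 3, 2 and 2 of them, beside 22.1% of all genes. The medians of these lists were 0.08, -0.12 and 0.07. The receptor with the lowest p was Fzd1 (0.64, SE 0.18), and the lowest of the destruction complex was Amer1 (-0.50, SE 0.14), neither past the threshold (adjusted p = 0.111 in limma for both). Vangl2, a core planar polarity protein, had 0.65 (SE 0.13, adjusted p = 0.0577 in limma). Of 5 genes of the R-spondin axis 1 was higher, Lgr5, with a median of 0.03. Of 6 adherens junction partners of beta-catenin 1 was higher, P-cadherin Cdh3 (0.75, SE 0.14), while the median of that list was -0.22. Most of these calls rest on all arrays being present. Whichever array of day 4 or day 7 was left out, the calls of Wnt6, Gpc3, Lgr5, Tcf7l2, Dkk2 and Cdh3 were lost, with the highest adjusted p at 0.252, 0.140, 0.171, 0.175, 0.191 and 0.269. Wif1 and Dkk1 were lost without either array of day 4 or replicate 2 of day 7 (up to 0.110 and 0.134), and Msx1 without the latter (0.0958).

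**Figure D5:**
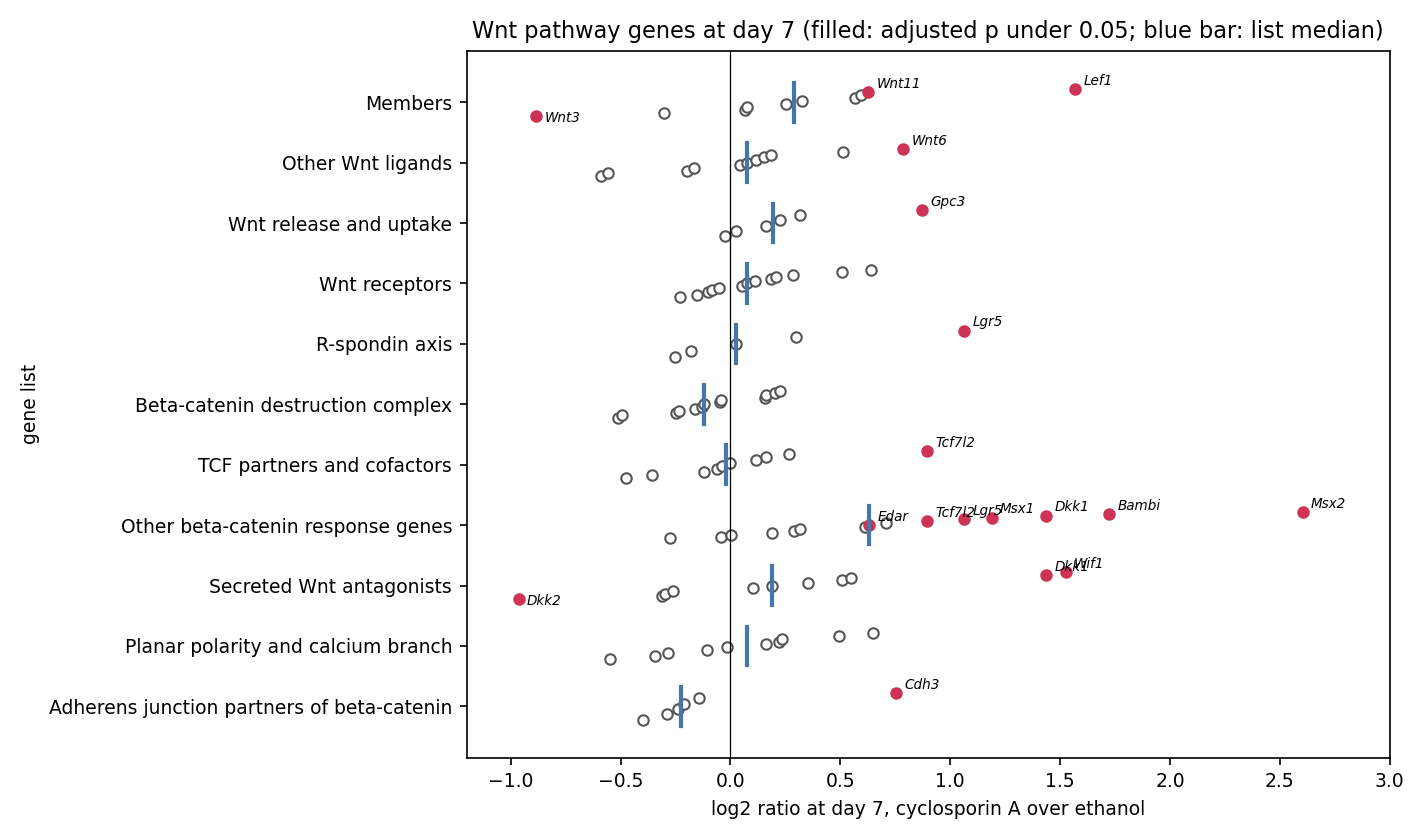
Log2 ratio at day 7 (horizontal axis) of each gene tested in the members' list and the 10 other pathway lists (rows), filled where called, with a blue bar at the list median. The response genes hold 7 filled points, with Msx2 at 2.60, while the receptors, the destruction complex and the planar polarity branch hold none.

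Markers of the growing follicle, of dividing cells and of melanocytes stood highest at day 7, but their list medians lay above 0 earlier as well. These medians were 0.24, 0.26 and 0.74 at day 2, and 0.93, 1.07 and 1.22 at day 4. The median of all genes was 0.04 on both days. Limma called 0 of these markers at day 2 and 1 follicle marker at day 4. At day 7, 2.35% of all genes were called higher and 0.642% lower. Of 9 growing follicle markers tested 8 were higher at day 7, and their summed linear signal was 190700 to 223000 in cyclosporin A skin against 4749 to 5879 in ethanol skin. Such a sum is weighted to the brightest genes. The log2 ratios of this list ran from -0.24 to 6.18 at day 7, with a median of 2.60. In ethanol skin, 0 follicle markers were above background on all 6 arrays. Hoxc13 and Shh were not above background in ethanol skin on any array, in the channel that showed fewer probes above background on every array. All 6 dividing cell markers tested were higher, with summed signals of 19450 to 25580 against 7103 to 7258. Of 5 melanocyte markers 4 were higher, with summed signals of 33810 to 36260 against 6889 to 8713. Of 8 dermal papilla markers tested 3 were higher, with 2558 to 2866 against 2125 to 2171. Corin, Sox2, Hhip and Prom1 were not above background on any ethanol array. Rspo3 was not above background in either channel of any array and was not tested. Of 7 skeletal muscle markers 3 were lower, with 260500 to 358400 against 411500 to 444500. The 7 keratinocyte markers had a median of -0.29 at day 7, and 1 of them lay above 0. For 4 macrophage markers the median was -0.68, with 1 above 0. Medians of the fibroblast, T cell, endothelium, Schwann cell and adipocyte lists were -0.07, -0.17, -0.08, 0.001 and 0.22. From keratinocytes to adipocytes, 0 markers of these lists were called at day 7. No member is on a marker list, and the part of these cell types in the ratios of Lef1, Wnt11 and Wnt3 was not tested.

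The genes whose ratios over the 6 arrays lay nearest to a called member were found by Euclidean distance among 13348 named genes that are no members. For Lef1 these were Tgif2 (distance 0.325), Kif20a (0.335) and Shcbp1 (0.427). Kif20a encodes a mitotic kinesin, and its ratios were 0.52 and 0.04, 0.73 and 0.92, and 1.19 and 1.77 at days 2, 4 and 7. For Wnt11 the nearest were Isyna1 (0.276), Dpep1 (0.321) and Pla2g7 (0.323), and for Wnt3 they were Cyp4f14 (0.367), Csnk2a2 (0.389) and Gjb5 (0.448). Gjb5 encodes a connexin of the epidermis, and its ratios at day 7 were -0.81 and -0.82. For Tcf7 they were Cep72 (0.213), Foxd1 (0.231) and Mcts2 (0.236). All these distances come from the same 6 arrays and describe likeness over them alone.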

How the data were processed

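The scanner files deposited by the authors hold each spot's median pixel intensity and local background in both channels. Per the submitters' processing notes, they come from Agilent Feature Extraction 9.1. The separately deposited values are Cy5 over Cy3 as a log10 ratio, identical to the scanner files' own log ratios (largest difference 0).

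Background was corrected by normexp with offset 50 and arrays were loess-normalized in limma 3.58.1 (R 4.3.3). Control spots (1639) and outlier spots (15 to 126 per array) were left out. Replicate spots were averaged. A probe was kept where, for some day, at least 1 channel of each of its 2 arrays was well above background (27938 of 41174). RefSeq accessions named 22951 probes and symbols 67, and 18156 had no symbol. Each gene took its brightest probe. A mean per day was fitted (3 residual degrees of freedom), and p-values were adjusted by Benjamini-Hochberg over all genes. The number of arrays limits precision. The test was tried on simulated data. Alternatives covered signals, normalization, filters, probes, left-out arrays and a replicate block.

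Members, lists and tests were chosen with earlier results of these data known. Beyond the members, the genes named are up to 4 called at day 7 per pathway list (lowest p first), or the gene with the lowest p where none was called, and the 3 genes nearest to each called member. Nkd1, Myc and Cd44 were added as response genes near or below 0.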

Additional observations from a re-analysis of the deposited data

Results flagged for a closer look

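For some genes the ratio to ethanol differed between days, either by the test of the difference or because both arrays of 1 day lay above 0 and both of another below it. By the test, Msx2 differed between day 7 and day 2 by 2.21 (SE 0.19, adjusted p = 0.00869 in limma), Bambi by 1.76 (SE 0.17, adjusted p = 0.0137), and Bambi between day 7 and day 4 by 1.38 (SE 0.17, adjusted p = 0.0475). Msx2 was not well above background in ethanol at day 2, so that its 2.21 is no exact size. Whichever array of days 2 or 4 was left out, the Msx2 difference had an adjusted p of 0.0554 to 0.0642, and the Bambi difference between day 7 and day 2 was lost whichever of the 6 arrays was left out (0.0629 to 0.0934). That of Bambi between day 7 and day 4 was also lost whichever array was left out (0.0813 to 0.489), and it was called in 2 of 17 alternatives. It was lost in the processed signals (0.175), with scale normalization (0.112) and with the replicate block (0.109).

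Among the members, opposite signs on both arrays set day 7 apart from day 4 for Wnt10a (-0.54, SE 0.28), Wnt3 (-1.11, SE 0.22), Wnt11 (0.77, SE 0.16) and Ctnnb1 (0.44, SE 0.17). They set day 7 apart from day 2 for Wnt11 (0.84, SE 0.16), and day 4 from day 2 for Ctnnb1 (-0.30, SE 0.17). None of these 6 differences passed the test over all genes in limma, with adjusted p from 0.251 to 0.999. The dimmer Ctnnb1 probe lay above 0 on every array, so the change of sign belongs to the brighter probe.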

How the results depend on the processing

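Members gave 841 values under the alternatives: 763 kept direction and side of the threshold, 36 lost a call, 18 gained one and 24 changed sign. Most of the 841 belong to results that were not called in the main fit, where keeping the side means staying uncalled. All 36 lost calls belong to Lef1, Wnt11 and Wnt3 at day 7 and to Lef1 and Tcf7 on average, so 763 does not measure how stable calls were. Other pathway genes gave 285, of which 190 kept both and 0 changed sign. The cause of the changes was not tested.

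Counts of genes called were 0, 1, 680 and 2974 at days 2, 4 and 7 and on average. They were 219 at day 7 and 1201 on average from processed signals, with 0 at day 4. The deposited log ratios gave 287 and 1714. Median centring gave 8722, 5584, 4966 and 13594. Scale normalization between arrays gave 0 at day 4, 316 at day 7, 70 from day 2 to day 7 in the cyclosporin A channel, and in the ethanol channel 2 from day 2 to day 4 and 25 from day 2 to day 7. Offset 10 gave 2 in the cyclosporin A channel from day 2 to day 4, and in the ethanol channel 0 and 4. Without background correction they were 0 at day 4, 26 from day 4 to day 7 and 39 from day 2 to day 7. Without a filter they were 0 at day 4 and 5419 on average. Keeping only probes that every array showed above background in each channel, they were 0, 365 and 1097 at day 4, day 7 and on average, 8 from day 4 to day 7, 11 from day 2 to day 7, and 89 and 0 from day 2 to day 7 in the cyclosporin A and ethanol channels. Days 2 and 4 alone gave 0 at day 4.

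Leaving out 1 array, with the remaining array of that day assumed to vary like the others, gave 0 to 1 at day 2, 0 to 4 at day 4, 147 to 688 at day 7 and 27 to 1504 on average. The differences gave 0 to 1 from day 2 to 4, 17 to 78 from day 4 to 7 and 28 to 88 from day 2 to 7. The cyclosporin A channel gave 0 to 1 and 63 to 854, and the ethanol channel 0 to 21 and 7 to 249, from day 2 to 4 and from day 2 to 7.

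Same-numbered arrays did not deviate in the same direction. Correlations of their deviations were 0.0077 for days 2 and 4, -0.28 for days 2 and 7, and -0.0232 for days 4 and 7. Those of days 2 and 7 thus tended to opposite directions, and the replicate block joins a number only. With the replicate block the counts were 0 at day 4, 330 at day 7, 1268 on average and 39 from day 2 to day 7. Wnt3 and Wnt11 at day 7 then had adjusted p of 0.0502 and 0.0890, and Tcf7 on average 0.0595.

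Signs changed in the processed signals and the deposited log ratios for Wnt3 at day 2 (0.015), Wnt5a at day 4 (-0.21) and Axin2 at day 7 (-0.037). They changed with the mean over probes for Wnt3 at day 2 (0.030) and Ctnnb1 at day 4 (0.000231). After median centring they changed for Wnt10a (0.44), Wnt3 (0.60) and Wnt11 (0.21) at day 2, Wnt10b (-0.034), Wnt11 (0.13) and Ctnnb1 (0.51) at day 4, Wnt10a (0.26) and Axin2 (-0.045) at day 7, and Wnt10a (0.53) and Wnt3 (0.32) on average. Leaving out 1 array gave -0.67 to 0.026 for Wnt10a, -0.35 to 0.20 for Wnt3 and -0.22 to 0.59 for Axin2 at day 2, -0.24 to 0.54 for Wnt5a at day 4, and -0.54 to 0.69 for Wnt10b and -0.073 to 0.21 for Axin2 at day 7. Lef1 at day 7 was called in 13 of 16 alternatives, Wnt3 in 7 of 17 and Wnt11 in 6 of 17. Mean in place of median pixel signals was not run, since the files as used here hold the median.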
